A study of Mus musculus with 6 samples.

Results

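Nnt and 9 antioxidant enzyme genes (Gpx1, Gpx3, Gpx4, Sod1, Sod2, Sod3, Cat, Txnrd1 and Hmox1) were followed in mouse aortas. The set was selected on known function and, for Nnt, on its difference between DKO and ApoE-KO on these same arrays. The other members and the gene lists used below were also chosen with earlier results of these arrays known. Each gene was read from the probe set that names it alone, and where there were several, the one chosen by its highest mean over the 6 arrays. All 10 had a row, among 19752 genes with a row of their own. Aortas of 3 DKO mice, which lack both Adora1 (adora1-/-) and Apoe (apoe-/-), were set against aortas of 3 ApoE-KO mice, which lack Apoe alone (apoe-/-), with replicates numbered 1 to 3 in each group. Adora1 encodes the adenosine A1 receptor, and Apoe encodes the apolipoprotein whose loss makes mice prone to atherosclerosis. All mice were 20 weeks old, untreated and on a C57BL/6 background. No mouse with Apoe intact was measured, so every level below is that of an Apoe-deficient artery. The series text calls the comparison group Adora1 knockout, while every label of its samples names Apoe, and the sample labels were followed. Neither the C57BL/6 subline nor whether same-numbered mice were littermates stands in the labels.

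Superoxide, which leaks from mitochondria and is made by NADPH oxidases in the artery wall, is turned into hydrogen peroxide by the superoxide dismutases. Catalase and the glutathione peroxidases then remove the peroxide. The glutathione and thioredoxin systems are kept reduced by NADPH, and Nnt, the nicotinamide nucleotide transhydrogenase of the inner mitochondrial membrane, uses the proton gradient to make NADPH in the mitochondrial matrix. The C57BL/6J subline carries a deletion of several exons of Nnt and makes no functional protein, whereas other C57BL/6 sublines have the intact gene.

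Values are log2 intensities of a whole-transcript array, so a difference of 1 is a doubling. Array medians lay between 8.01 and 8.02. Smooth muscle markers (Myh11, Acta2 and Cnn1 among 7) had a mean level of 12.65 to 12.80 on the DKO arrays and 12.60 to 12.80 on the ApoE-KO arrays. Lung epithelium markers (Sftpc, Scgb1a1 and Sftpa1 among 7) stood apart on both arrays numbered 3, at a mean of 9.73 in DKO and 10.33 in ApoE-KO, against 6.81 to 6.88 on the other arrays. A difference of an enzyme gene that passed a test is therefore also given without these arrays. The number of arrays, 3 per group, limits the precision. Over all 25254 probe sets, limma without pairing passed 0 at an adjusted p under 0.05, with 5.62% at an unadjusted p under 0.05. With arrays paired by replicate number it passed 44 (0.174%), 24 of them higher in DKO (0.095%) and 20 lower (0.0792%).

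Nnt gave a log2 intensity of 10.13, 10.02 and 9.75 on the DKO arrays 1 to 3, against 9.11, 9.33 and 9.20 on the ApoE-KO arrays. All 3 DKO arrays were above all 3 ApoE-KO arrays, and the gap between the groups was wider than the range within the ApoE-KO group. The groups averaged 9.97 ± 0.19 in DKO and 9.21 ± 0.11 in ApoE-KO (SD, n = 3 each), a difference of 0.76, or 1.69-fold. By replicate number, DKO minus ApoE-KO was 1.02, 0.69 and 0.55. Nnt was singled out because of this contrast in an earlier reading of the same arrays, so these values are a description and carry no test. Over all probe sets, 58 (0.230%) had a difference at least as large in either direction, and the groups did not overlap in 12% of probe sets (5.55% with DKO higher, 6.47% with DKO lower). With any array or any same-numbered pair left out the Nnt difference lay between 0.62 and 0.86. ApoE-KO aortas still gave a level of 9.11 to 9.33, above the array medians. Which exons the probes of this probe set cover is unknown here, so the level does not say which Nnt allele a mouse carried. The alleles were not tested.

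**Figure D1:**
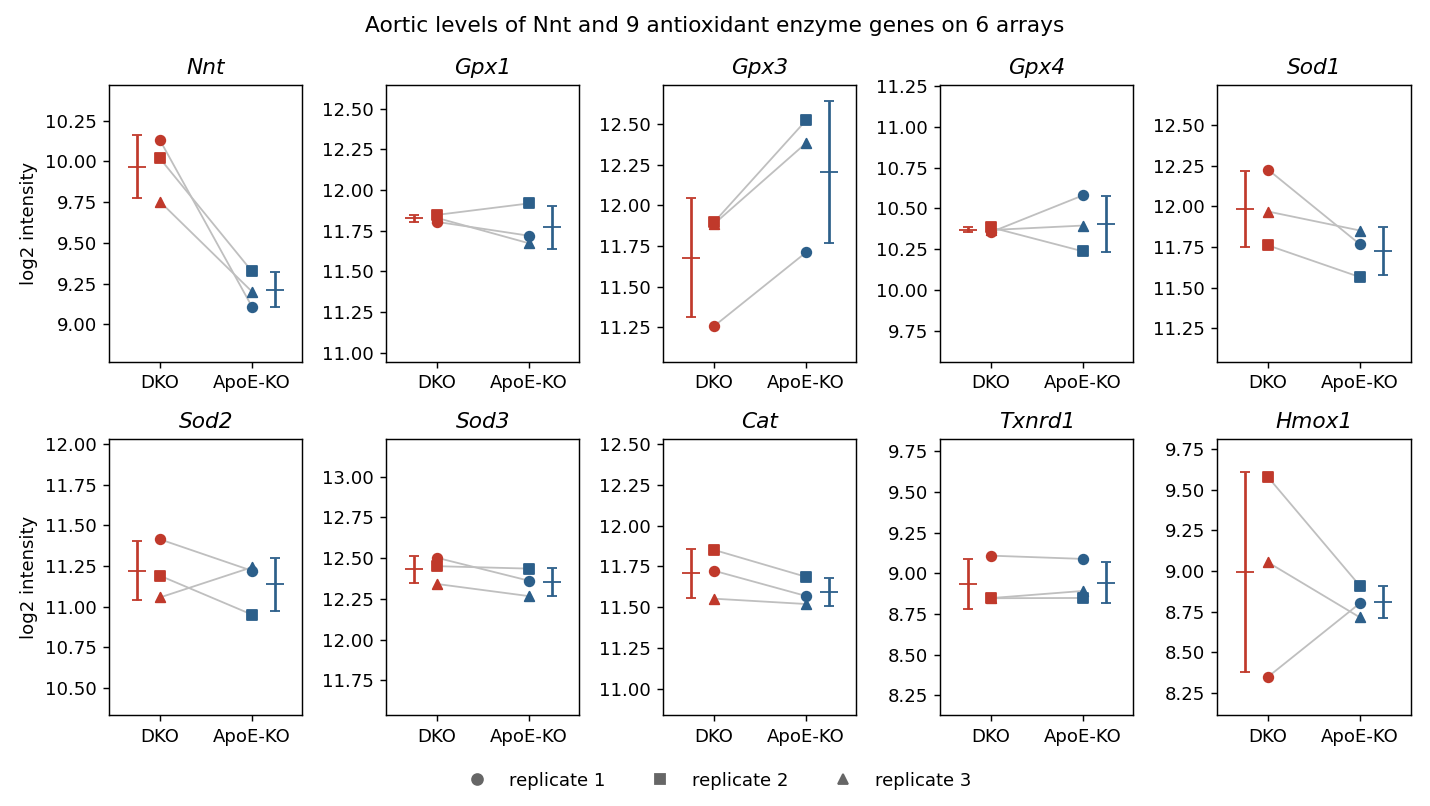
Log2 intensity (vertical axis, the same span in every panel but a different origin) of Nnt and the 9 enzyme genes in DKO (left, red) and ApoE-KO (right, blue). Symbols mark the replicate number, grey lines join same-numbered arrays, and bars beside the points give the mean ± SD (n = 3). The groups are separate for Nnt, every Gpx3 line slopes up toward ApoE-KO, and the Hmox1 lines cross.

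The genes next to Nnt on chromosome 13 did not share its difference in full. Of the 5 measured genes on either side in the RefSeq gene order of assembly GRCm38.p6, 7 were higher and 3 lower in DKO, with differences from -0.18 to 0.35. None of the 10 passed in either fit (limma, adjusted p from 0.142 to 0.730 with pairing), with 0 at an unadjusted p under 0.05 without pairing and 3 with it (Parp8, Emb and 3110070M22Rik), where 16.2% of all probe sets reached it. The groups did not overlap in 2 of the 10, Gm10732 (difference 0.19, higher in every pair) and Ccl28 (-0.10, lower in every pair), where 12% of all probe sets did not. Paip1, which encodes a partner of the poly(A)-binding protein and is the nearest measured gene after Nnt, gave differences of -0.10, 0.29 and 0.59 for replicates 1 to 3. Fgf10, a fibroblast growth factor gene and the nearest measured one before it, gave 0.14, 0.21 and -0.12. In both genes a replicate went the other way, while 40.3% of all probe sets had the same sign in all 3 pairs. Nnt was singled out for its difference, which 0.230% of all probe sets reached. That its neighbours had smaller differences is therefore a description, and the gap between Nnt and its neighbours was not tested. Emb, a cell adhesion gene, had the largest difference of the neighbours, 0.35, with 0.56, 0.52 and -0.04 by replicate. Parp8, an ADP-ribosyltransferase gene, was higher in each pair by 0.17, 0.33 and 0.22. The mean differences of the others were 0.16 for Mrps30, 0.07 for 4833420G17Rik, -0.18 for 3110070M22Rik and -0.07 for Tmem267.

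**Figure D2:**
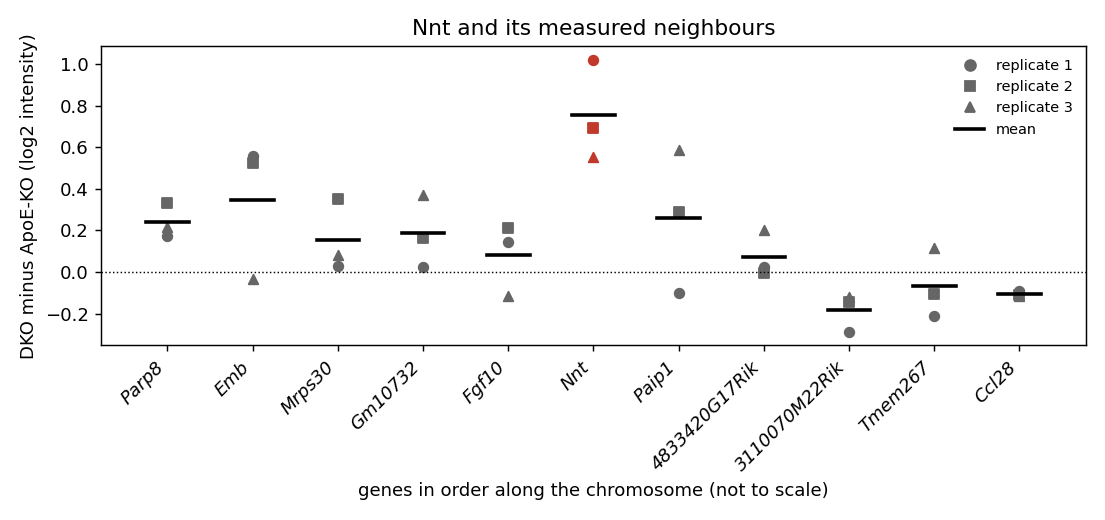
DKO minus ApoE-KO (log2 intensity) of Nnt (red) and of the 5 measured genes before and after it, in gene order and not to scale. Symbols are the replicate numbers and the black bar is their mean. The Nnt symbols lie between 0.55 and 1.02, and no neighbour has a mean above 0.35.

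Other genes that differ in sequence or expression between C57BL/6 sublines were read beside Nnt, and 7 of the 8 listed had a row. Wdfy1, which encodes an endosomal adaptor of Toll-like receptor signalling, gave 9.11, 8.90 and 8.94 in DKO, against 8.46, 8.66 and 8.58 in ApoE-KO. Mmrn1, a matrix protein gene of platelets and lymphatic vessels that is deleted in a vendor's subline, gave 7.08, 7.14 and 7.31 in DKO, against 7.80, 8.53 and 7.77 in ApoE-KO. The groups did not overlap for Wdfy1 (difference 0.42) or Mmrn1 (-0.86), though neither gene passed over all probe sets (limma, adjusted p = 0.115 and 0.0912 with pairing). The differences of Ide (0.05), Entpd4 (-0.18), Fgfbp3 (-0.08), Crb1 (-0.10) and Cyfip2 (-0.08) were smaller. None of the 7 passed in either fit. Without pairing 2 had an unadjusted p under 0.05 in limma, where 5.62% of all probe sets did. With pairing 3 did, where 16.2% of all probe sets did. The groups did not overlap in 2 of the 7, against 12% of all probe sets.

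The 6 genes whose pattern over the 6 arrays lay closest to that of Nnt were Rimklb, Phex, Cpt1a, Rasl11a, Slc25a34 and Brip1. The measure was the root mean square difference between the gene's and Nnt's deviations from their own means. It ran from 0.12 to 0.16 for these genes, against a median of 0.41 over 17623 genes. Cpt1a, the enzyme that commits fatty acids to mitochondrial import, gave 11.74, 11.78 and 11.49 in DKO, against 11.01, 11.15 and 11.28 in ApoE-KO. Slc25a34, a member of the mitochondrial carrier family, gave 9.67, 9.16 and 8.997 in DKO, against 8.46, 8.41 and 8.63 in ApoE-KO. Rimklb and Phex, the nearest by this measure, differed by 0.73 and 0.76, and Rasl11a and Brip1 by 0.52 and 0.50. All 6 were higher on every DKO array, which is a description, since they were picked for likeness to Nnt. Of the 9 enzyme genes, Sod1 was the nearest at 0.32 and Gpx3 the farthest at 0.73.

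Of the 9 enzyme genes, 6 were higher and 3 lower in DKO, with a median difference of 0.08 against -0.00241 over all probe sets. Without pairing 0 of 9 passed in limma (adjusted p from 0.862 to 0.995), and 0 had an unadjusted p under 0.05. With pairing 1 passed, Gpx3, where 0.174% of all probe sets passed. An unadjusted p under 0.05 was reached by 2 of the 9 with pairing in limma, and by 16.2% of all probe sets. The difference had the same sign in all 3 same-numbered pairs for 4 of the 9, 3 above 0 and 1 below, where 40.3% of all probe sets did so (21.2% above 0 and 19.1% below). The groups did not overlap in 0 of the 9, against 12% of all probe sets.

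**Figure D3:**
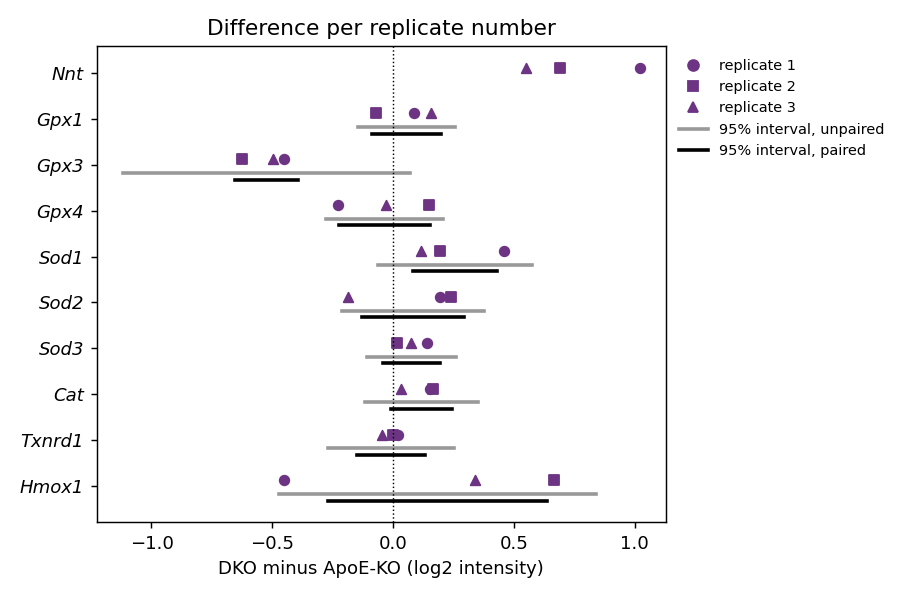
DKO minus ApoE-KO (log2 intensity, horizontal axis) for each gene. Symbols are the 3 replicate numbers, grey bars the 95% interval of the limma fit without pairing and black bars that with pairing; Nnt has no interval because it was not tested. The paired interval lies below 0 for Gpx3 and above 0 for Sod1, and it includes 0 for the other 7.

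The glutathione peroxidases use glutathione to reduce peroxides, and Gpx1, Gpx3 and Gpx4 carry selenocysteine in the active site. Gpx3, the secreted plasma enzyme, which kidney and fat make in quantity, gave 11.26, 11.90 and 11.88 in DKO, against 11.71, 12.52 and 12.38 in ApoE-KO. Replicate 1 was the lowest in both groups and the groups overlapped, but each DKO array was below its same-numbered ApoE-KO array. The pairs stood at -0.45, -0.62 and -0.50. Gpx3 averaged 11.68 ± 0.37 in DKO and 12.20 ± 0.43 in ApoE-KO (SD, n = 3 each), a difference of -0.52 (95% interval -1.12 to 0.07; limma without pairing, adjusted p = 0.862). With pairing it fell by 0.52 (95% interval -0.65 to -0.39; limma, adjusted p = 0.0467). The call was not made without the replicate 3 arrays (-0.54, adjusted p = 0.0587) or the replicate 2 arrays (-0.47, adjusted p = 0.265), and was made without the replicate 1 arrays (-0.56, adjusted p = 0.0127), each time with pairing. Over all probe sets, those fits passed 48 without replicate 3, 0 without replicate 2 and 415 without replicate 1.

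White adipocyte markers were mostly lower in DKO as well. Of 9 listed, 8 were measured and 7 were lower in DKO. Their mean level was 9.35, 10.13 and 9.73 in DKO, against 9.80, 10.52 and 10.22 in ApoE-KO. By this mean the arrays of each group fell in the order 1, 3, 2, as for Gpx3. For Gpx3, DKO replicates 2 and 3 were close, at 11.90 and 11.88. Retn, the hormone resistin, and Cidec, a lipid droplet protein gene, fell with pairing (limma, adjusted p = 0.0226 and 0.0467), where 0.174% of all probe sets passed. Without pairing neither passed (limma, adjusted p = 0.368 for Retn and 0.866 for Cidec). Retn did not keep the order, at 8.90, 9.35 and 9.36 in DKO, against 10.69, 11.06 and 10.46 in ApoE-KO. Fabp4 did not keep it in ApoE-KO. Adipoq, the adiponectin gene and a defining marker, gave 9.04, 9.78 and 9.16 in DKO, against 9.44, 10.33 and 9.89 in ApoE-KO (paired adjusted p = 0.0545). Lep, the leptin gene, went the other way, with 6.88, 7.65 and 7.14 in DKO, against 6.71, 7.09 and 6.81 in ApoE-KO, and was the 1 measured marker with a higher mean in DKO (difference 0.36, paired adjusted p = 0.154). Plin1, which coats fat droplets, differed by -0.19. Of 6 brown adipocyte markers 5 were lower in DKO, with a mean level of 8.40, 9.19 and 8.80 in DKO, against 8.83, 8.98 and 9.46 in ApoE-KO. Of these, Ucp1, the uncoupling protein, stood at -0.58, Cidea at -0.13 and Elovl3 at -0.76, and none passed. The part of fat around the vessel in the Gpx3 difference was not tested. In whole aorta, fewer cells of a type and less RNA per cell cannot be told apart.

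The differences of Gpx1 and Gpx4 were smaller. Gpx1, the cytosolic and mitochondrial enzyme, gave 11.80, 11.85 and 11.83 in DKO, against 11.72, 11.92 and 11.67 in ApoE-KO (difference 0.06, paired 95% interval -0.09 to 0.20). Gpx4, which reduces lipid hydroperoxides in membranes and guards against ferroptosis, gave 10.35, 10.38 and 10.37 in DKO, against 10.58, 10.24 and 10.39 in ApoE-KO (difference -0.04, paired 95% interval -0.22 to 0.15). For both genes the DKO values lay inside the ApoE-KO range. A second probe set of Gpx4 gave the same difference, -0.04. Whether Gpx3 differed from Gpx1 or Gpx4 in its response was not tested.

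The superoxide dismutases were each a little higher in DKO on average. Sod1, the copper and zinc enzyme of the cytosol, gave 12.23, 11.76 and 11.97 in DKO, against 11.77, 11.57 and 11.85 in ApoE-KO. The groups overlapped, while every pair was higher in DKO, by 0.46, 0.20 and 0.12. The mean difference was 0.26 (paired 95% interval 0.08 to 0.43), and it did not pass over all probe sets (limma, adjusted p = 0.862 without and 0.182 with pairing). Sod2, the manganese enzyme of the mitochondrial matrix, gave 11.41, 11.19 and 11.06 in DKO, against 11.22, 10.95 and 11.24 in ApoE-KO, and pair 3 went the other way (0.19, 0.24 and -0.19). Sod3, the secreted enzyme that binds to the matrix of the artery wall, gave 12.50, 12.45 and 12.34 in DKO, against 12.36, 12.44 and 12.27 in ApoE-KO. Its pairs differed by 0.14, 0.01 and 0.07, and the paired 95% interval of -0.04 to 0.19 included 0. The paired interval of Sod2 ran from -0.13 to 0.29.

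Catalase and thioredoxin reductase differed little. Cat, the peroxisomal enzyme that splits hydrogen peroxide, gave 11.72, 11.85 and 11.55 in DKO, against 11.57, 11.69 and 11.52 in ApoE-KO, higher in each pair by 0.15, 0.17 and 0.03. Its mean difference of 0.12 did not pass (limma, adjusted p = 0.335 with pairing). Txnrd1, the cytosolic selenoenzyme that keeps thioredoxin reduced, gave 9.11, 8.85 and 8.85 in DKO, against 9.09, 8.85 and 8.89 in ApoE-KO. Both groups had replicate 1 highest, and the pairs differed by 0.02, -0.00166 and -0.04. The paired 95% interval of Txnrd1, -0.15 to 0.13, is narrower than the unpaired one, -0.27 to 0.25.

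Hmox1, the inducible haem oxygenase that breaks haem into biliverdin, carbon monoxide and iron, varied most within a group. It gave 8.35, 9.58 and 9.05 in DKO, against 8.80, 8.91 and 8.71 in ApoE-KO. The DKO arrays lay on both sides of the ApoE-KO range, and the pairs stood at -0.45, 0.67 and 0.34. The SD was 0.62 in DKO and 0.10 in ApoE-KO (n = 3 each), and the mean difference of 0.18 did not pass (limma, adjusted p = 0.947 without and 0.682 with pairing). It was 0.51 without DKO replicate 1 and -0.11 without DKO replicate 2. With pairing and without the replicate 1 arrays it stood at 0.50 and passed (limma, adjusted p = 0.0464). That fit was chosen after the data were seen and leaves out the pair that went the other way (-0.45). Over all 25254 probe sets 415 passed in it, against 44 with all pairs.

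Macrophage markers followed the same order of arrays in DKO. Over all 10 listed, all measured, their mean level was 8.42, 9.28 and 9.01 in DKO, against 8.92, 9.07 and 8.88 in ApoE-KO. Cd68, a lysosomal glycoprotein gene of macrophages, gave 9.04, 10.89 and 10.48 in DKO, against 9.93, 10.54 and 10.13 in ApoE-KO. Adgre1, a surface receptor gene of mouse macrophages, gave 8.64, 9.95 and 9.45 in DKO, against 9.27, 9.42 and 9.25 in ApoE-KO. Lyz2, the macrophage lysozyme gene, gave 11.43, 12.81 and 12.44 in DKO and stayed between 12.34 and 12.36 in ApoE-KO. DKO replicate 1 was the lowest array for Hmox1, for these markers and for the list mean, and DKO replicate 2 the highest. Within the list, Cd14 was highest on ApoE-KO replicate 2 (8.10) and Marco on DKO replicate 3 (7.08). The mean of the fibroblast markers was likewise lowest on DKO replicate 1 (12.10) and highest on DKO replicate 2 (12.47). Within DKO, both adipocyte lists were also lowest on replicate 1 and highest on replicate 2. The part of macrophage content in the Hmox1 values was not tested.

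**Figure D4:**
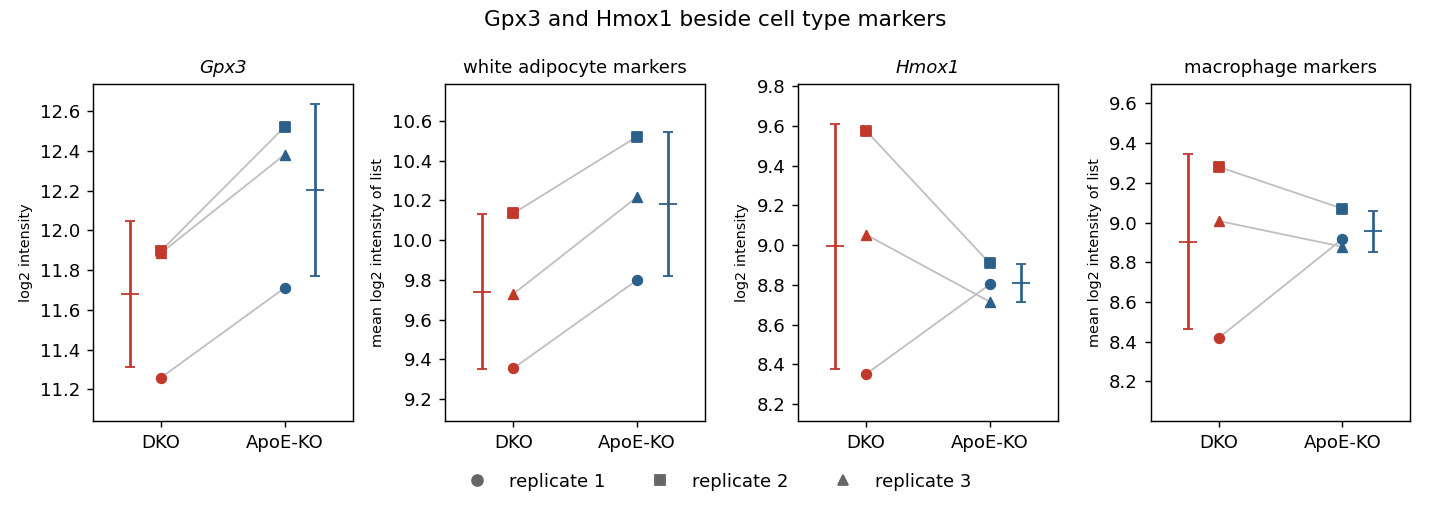
Log2 intensity of Gpx3 and Hmox1 and the mean log2 intensity of 8 white adipocyte and 10 macrophage markers, by array, with DKO left (red) and ApoE-KO right (blue). Symbols and lines are by replicate number and bars give the mean ± SD (n = 3). All 3 lines slope up toward ApoE-KO for Gpx3 and for the adipocyte markers, and DKO replicate 1 is the lowest point for Hmox1 and for the macrophage markers.

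Genes that supply, share or control these enzymes were read from 8 lists, with 102 of 106 genes measured. Of the 102, 58 were higher and 44 lower in DKO, with a median of 0.02. In limma 0 passed without pairing, with 3 at an unadjusted p under 0.05, where 5.62% of all probe sets reached it. With pairing 0 passed, with 17 at an unadjusted p under 0.05, where 16.2% of all probe sets reached it. The groups did not overlap in 9 (8.82%), against 12% of all probe sets.

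Of the peroxiredoxins and other glutathione peroxidases, 5 of 9 measured were higher in DKO (median 0.08). Prdx1 and Prdx2, cytosolic peroxiredoxins, stood at 0.21 and 0.20, and Prdx3, which removes peroxide in mitochondria with electrons that come from NADPH, at 0.09. In the thioredoxin and glutaredoxin list 7 of 10 were higher (median 0.08), with Txn1 at 0.05, the mitochondrial Txn2 at -0.06 and its reductase Txnrd2 at 0.12. Of 15 genes of glutathione synthesis and recycling 9 were higher (median 0.01). Gclc and Gclm, the subunits of the enzyme that limits glutathione synthesis, stood at -0.05 and 0.19, and Gsr, which reduces oxidised glutathione with NADPH, at 0.08.

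The other producers of NADPH were split, with 8 of 18 higher in DKO and a median of -0.01. Idh2, the mitochondrial isocitrate dehydrogenase, which like Nnt makes NADPH in the matrix, gave 11.16, 10.94 and 10.97 in DKO, against 11.13, 10.77 and 10.82 in ApoE-KO, a difference of 0.12. Pgd of the pentose phosphate pathway stood at -0.10 and the malic enzyme gene Me1 at -0.01. Aldh1l1, a folate enzyme that also yields NADPH, was picked out after its values were seen. It gave 7.50, 7.40 and 7.29 in DKO, against 8.06, 7.95 and 7.54 in ApoE-KO, and did not pass (limma, adjusted p = 0.0885 with pairing).

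Genes of NRF2, the transcription factor that switches on antioxidant genes, showed 8 of 15 higher (median 0.01). Nfe2l2, which encodes NRF2, stood at 0.01, Keap1, its inhibitor, at -0.08, and the target gene Nqo1 at 0.34, with pairs at 0.12, 0.44 and 0.47 (limma, adjusted p = 0.150 with pairing). Of 18 genes for selenoprotein synthesis and other selenoproteins 10 were higher (median 0.01). Selenop, which carries selenium in plasma, stood at -0.03, Secisbp2, which reads the selenocysteine signal in the mRNA, at -0.12, and Sephs2, which makes the selenium donor, at 0.06. Of the 6 genes that supply metal to the dismutases 4 were higher (median 0.03), with Ccs, the copper chaperone of Sod1, at 0.04, Atox1 at 0.02 and the copper pump Atp7a at 0.08.

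Around haem breakdown and iron, 7 of 11 genes were higher in DKO (median 0.06). Hmox2, the constitutive haem oxygenase, stood at 0.11, and the biliverdin reductases Blvra and Blvrb at 0.18 and 0.06. The list held the pair of genes with the widest differences of the 102, both picked out after their values were seen. Slc40a1, the iron exporter ferroportin, gave 6.89, 7.51 and 7.40 in DKO, against 6.76, 6.65 and 6.70 in ApoE-KO. Hp, which encodes the haemoglobin-binding plasma protein haptoglobin and is made in fat as well as liver, gave 7.97, 9.48 and 9.23 in DKO, against 9.10, 10.12 and 9.92 in ApoE-KO. Neither passed (limma, adjusted p = 0.148 for Slc40a1 and 0.0503 for Hp with pairing).

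The promoters of Gpx3, Sod1 and Txnrd1 are shown because the mean difference was negative for Gpx3, positive for Sod1 and near 0 for Txnrd1. Each runs from 250 bases before the gene start to 50 after it, 5′ to 3′ on the gene's strand (RefSeq, build GRCm38.p6), and 7 of the 10 genes had an entry. Capitals mark 4 motifs, searched on both strands: the core of the antioxidant response element bound by NRF2 (TGACNNNGC), the GC box (GGGCGG), the CCAAT box (CCAAT) and the TATA box (TATAAA). Adjacent GC boxes can overlap each other and form 1 run of capitals. Gpx3 lies at chr11:54902604-54902903, Sod1 at chr16:90220512-90220811 and the second of 3 Txnrd1 starts at chr10:82858956-82859255, all on the plus strand.
Gpx3: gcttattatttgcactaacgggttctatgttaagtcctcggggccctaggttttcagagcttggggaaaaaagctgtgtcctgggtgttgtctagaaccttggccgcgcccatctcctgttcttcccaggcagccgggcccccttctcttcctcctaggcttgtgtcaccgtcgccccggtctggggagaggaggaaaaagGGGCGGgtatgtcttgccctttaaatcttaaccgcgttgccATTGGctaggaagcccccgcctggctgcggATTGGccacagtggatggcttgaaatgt
Sod1: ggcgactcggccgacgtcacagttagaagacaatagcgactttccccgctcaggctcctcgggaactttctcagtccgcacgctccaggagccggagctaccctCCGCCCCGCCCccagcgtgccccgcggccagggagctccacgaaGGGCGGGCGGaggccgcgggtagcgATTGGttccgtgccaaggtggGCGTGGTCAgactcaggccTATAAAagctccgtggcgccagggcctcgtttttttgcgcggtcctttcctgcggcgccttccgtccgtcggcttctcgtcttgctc
Txnrd1: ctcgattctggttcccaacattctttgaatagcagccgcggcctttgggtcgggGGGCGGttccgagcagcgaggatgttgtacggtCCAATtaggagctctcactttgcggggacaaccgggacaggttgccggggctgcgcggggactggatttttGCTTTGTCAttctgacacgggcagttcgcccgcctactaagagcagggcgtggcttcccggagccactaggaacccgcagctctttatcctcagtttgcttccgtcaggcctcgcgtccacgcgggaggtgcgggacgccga

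The Gpx3 window held 1 GC box and 2 CCAAT boxes, and no antioxidant response element core. The Sod1 window held 1 such core beginning 56 bases before the gene start, 4 GC boxes, 1 CCAAT box and 1 TATA box. The Txnrd1 window held 1 core beginning 92 bases before the start, 1 GC box and 1 CCAAT box. Among all 32851 promoters in the table, 12.4% held the core, 35.7% a GC box, 37.4% a CCAAT box and 13.6% a TATA box. Of the 12 promoter entries of the member genes, only the Sod1 and Txnrd1 windows shown held the core. The entries of Gpx1, Gpx4, Sod2 and Cat, not shown, did not hold it. Of the 3 Txnrd1 starts, the one shown was picked because it held motif matches; the other two held none of the 4 motifs. These matches describe letters only.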

How the data were processed

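RNA from 6 aortas was hybridised to 1 array each after whole-transcript amplification, per the labels' protocols. The authors deposited log2 values for 25254 probe sets; the submitters' processing notes name RMA, Partek and build mm9 but no versions. The series text names array batch as a factor of the study's own ANOVA; the labels give no batch, and whether it was removed from the deposited values is unknown here. RMA usually equalises array distributions, so differences are relative to the other genes of an array. Probe sets were named with the platform annotation (21496 name 1 gene). Arrays came from separate mice per the series text, and no 2 arrays were identical.

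All probe sets were fitted with limma 3.58.1 in R 4.3.3 (lmFit, eBayes with intensity trend), DKO minus ApoE-KO, two-sided, with Benjamini-Hochberg adjustment over all 25254 at 0.05. Same-numbered arrays deviated together from their group means (correlations 0.60, 0.50 and 0.64 over probe sets), so the numbers were treated as pairs, which only these correlations bear out, and paired values are given where they change a call. Such correlations are across probe sets, which are not replicates. The fit was tested on simulated data that kept the pair effects of the replicate numbers. That simulation takes the pairing as given and cannot show whether it is right. The members and lists were chosen with earlier results of these data known. Named were all members, the first 3 measured genes of each list, genes that passed, the subline genes, 6 genes most like Nnt and 5 neighbours on each side. Aldh1l1, Slc40a1, Hp, Gstt1, Fabp4, Cd14 and Marco were named after their values were seen. Alternatives were the replicate block, eBayes without trend, a filter at the 40th percentile, quantile normalization, median centring and arrays or pairs left out. Adora1 is not analysed here.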

Additional observations from a re-analysis of the deposited data

How the results depend on the processing

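With 3 arrays per group, the paired calls rest on the replicate numbers, which no label explains. Without pairing 0 probe sets passed. With the replicate block 44 passed, and with the block but without the arrays of replicate 1, 2 or 3, chosen after seeing the data, 415, 0 and 48. Among the 9 enzyme genes 0 passed without the block and 1 with it (Gpx3), and with the block 2 passed without replicate 1 (Gpx3 and Hmox1), 0 without replicate 2 and 0 without replicate 3. With any single array or pair left out and no block, 0 to 8 probe sets (8 without DKO replicate 3) and 0 of the 9 genes passed. The Nnt difference stayed within 0.62 to 0.86. The median over the 102 pathway genes was 0.02 as reported, 0.00710 after quantile normalization, 0.0113 with the block and without replicate 3, and 0.00244 to 0.0633 with arrays left out.

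Of the uncalled genes, 4 changed sign when arrays were left out: with 1 array left out, Gpx4 ranged from -0.119 to 0.0528, Sod2 from -0.0145 to 0.164, Txnrd1 from -0.10 to 0.0642 and Hmox1 from -0.11 to 0.51. With both arrays of a number left out, with or without the block, Gpx4 stood at 0.0599 without replicate 1, Hmox1 at -0.0568 without replicate 2 and Txnrd1 at 0.00913 without replicate 3. Gpx1, Gpx3, Sod1, Sod3 and Cat kept their direction under all 17 alternatives run, but their size moved by over 1.5 times. Without DKO replicate 1, Gpx3 stood at -0.31, Sod1 at 0.14 and Sod3 at 0.04, and without DKO replicate 2 Cat stood at 0.05. Without DKO replicate 3, Cat stood at 0.20 and Sod3 at 0.12. Without ApoE-KO replicate 1, Gpx3 stood at -0.77 and Gpx1 at 0.03. Without ApoE-KO replicate 2, Gpx1 stood at 0.13 and Sod3 at 0.12, and without ApoE-KO replicate 3 Gpx1 stood at 0.00835 and Sod3 at 0.03.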

Other observations

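Red blood cells are rich in Gpx1, Cat and Prdx2, and genes of that lineage were read beside them. Of 9 red cell markers listed, 3 had a row of their own, and all 3 were higher in DKO. Alas2, the first enzyme of haem synthesis in red cell precursors, gave 9.01, 10.48 and 10.74 in DKO, against 8.62, 9.56 and 9.55 in ApoE-KO. Each DKO array was above its same-numbered ApoE-KO array, and replicate 1 was lowest in both groups. In 21.2% of all probe sets DKO was likewise higher in all 3 pairs. Bpgm, which makes 2,3-bisphosphoglycerate in red cells, gave 8.15, 8.38 and 8.37 in DKO, against 7.60, 7.96 and 7.82 in ApoE-KO. The Bpgm groups did not overlap, where 12% of all probe sets did not. Slc4a1, the anion exchanger of the red cell membrane, differed by 0.09. None passed over all probe sets (limma with pairing, adjusted p = 0.0792 for Alas2, 0.0517 for Bpgm and 0.552 for Slc4a1). The part of red cells in the levels of Gpx1, Cat and Prdx2 was not tested.

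Gstt1, a glutathione transferase gene picked out after its values were seen, gave 10.82, 10.88 and 10.95 in DKO, against 10.45, 10.67 and 10.64 in ApoE-KO. The groups did not overlap, where 12% of all probe sets did not, and it did not pass (difference 0.29; limma with pairing, adjusted p = 0.0984).

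The other cell type lists held no gene that passed in either fit. Endothelial markers were higher in DKO for 6 of 7, with Pecam1 at 0.16, Cdh5 at 0.05 and Tie1 at 0.11. Fibroblast markers were higher for 4 of 6, with Dcn at 0.03, Lum at 0.31 and Pdgfra at -0.01. Smooth muscle markers were higher for 5 of 7, with Myh11 at 0.10, Acta2 at 0.0032 and Cnn1 at 0.06. Neutrophil markers had a lower mean for all 7, the widest difference being -0.15, with S100a8 at -0.000107, S100a9 at -0.01 and Csf3r at -0.000663. Their median difference by replicate number was -0.09, 0.03 and -0.06. Sympathetic nerve or adrenal markers were lower for 4 of 6, with Th at -0.72, Dbh at -0.86 and Chga at -0.22, and Th and Dbh were highest on ApoE-KO replicate 3, at 9.26 and 8.37. Skeletal or cardiac muscle markers had a lower mean for all 8, with Myh1 at -0.19, Myh4 at -0.30 and Acta1 at -0.24. By replicate number the median difference of these muscle markers was 0.07, -0.27 and -0.27, so pair 1 went the other way. Liver or kidney markers were lower for 4 of 6, with Alb at 0.01, Apoa1 at -0.07 and Ttr at -0.10. Lung epithelium markers were lower for 6 of 7, with Sftpc at -0.21, Scgb1a1 at -0.40 and Sftpa1 at -0.37.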
